A study of Homo sapiens with 6 samples.

Results

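LINC genes are long noncoding RNA genes that carry a systematic symbol, LINC and a number, because they lie between or beside protein-coding genes and had no functional name when they were catalogued. Of 31164 genes in the deposited expression table, 772 rows carry such a symbol, and 108 of them are described here. They were selected on their level, a mean FPKM of 1 or more across the 6 libraries, and the other 664 rows lay below it. FPKM counts the fragments of a gene per kilobase of its transcript, scaled by the mapped fragments of each library. Their level is therefore a description. The rule does not use the difference between the groups, although a gene near the minimum can pass it through 1 group alone.

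The cells were labelled HT29, an established human colorectal cancer line, in 2 groups of 3 libraries. The shHMGA1 group was labelled as an HMGA1 knockdown, stable and made with a short hairpin RNA. The shNC group was labelled WT and carried a control hairpin. All 6 libraries were labelled as untreated, were grown in the same serum-supplemented DMEM and were made from poly-A RNA, so transcripts without a tail are under-represented. The labels do not say how many hairpins or clones were used, nor whether the 3 libraries of a group came from separate cultures, so each p-value rests on the spread among 3 libraries a group, and that spread may be technical only. The question is which genes respond to the loss of HMGA1.

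HMGA1 is a small architectural chromatin protein whose AT-hooks bind the minor groove of short runs of A and T bases. Long noncoding RNAs are mostly made by RNA polymerase II, capped, often spliced, and present at far fewer copies than messenger RNAs. Some act on chromatin or on a neighbouring gene, some act in the cytoplasm, and many have no known role. The nuclear RNA exosome degrades a large part of such transcripts, which makes their level depend on both synthesis and decay. In bulk RNA, fewer cells that express a gene and less RNA per cell cannot be told apart.

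HMGA1 itself had 465.29, 565.19 and 507.95 FPKM in shHMGA1 and 785.21, 809.56 and 854.4 FPKM in shNC. The groups did not overlap, and shHMGA1 held 62.8% of the shNC mean (log2 fold change -0.67, SE 0.08, adjusted p = 0.0018 by limma), so the knockdown was partial. An exact two-sided permutation test gave p = 0.1, the smallest that 3 against 3 allows. Library totals ran from 807156 to 838067 FPKM, and genes listed at 0 numbered 6807 to 7116 in shHMGA1 and 5747 to 6542 in shNC. Of 13 colorectal epithelial markers, the keratin gene KRT8 averaged 1366 ± 37.7 FPKM in shHMGA1 and 1492 ± 69.2 in shNC, and EPCAM averaged 252 ± 19.2 in shHMGA1 and 197 ± 2.54 in shNC (SD, n = 3 each). CDX2, a gut transcription factor gene, averaged 8.11 ± 0.77 FPKM in shHMGA1 and 7.63 ± 0.78 in shNC. The intestinal genes VIL1, CDX1, CDH17, LGALS4, GPA33 and CEACAM5 averaged at most 0.087 FPKM in shHMGA1 and at most 0.14 in shNC, so 6 of the 13 markers were at or near 0 and go against the label, while the keratins and EPCAM were present. Of the 7 markers tested, EPCAM was higher and KRT18 and KRT19 were lower in shHMGA1, KRT18 not without shNC replicate 2 or 3 or shHMGA1 replicate 3 (adjusted p up to 0.0683, limma). Summed leukocyte markers stayed at 1.61 to 2.1 FPKM in shHMGA1 and 1.38 to 1.8 in shNC, with PTPRC at or near 0. Summed endothelial markers stayed at or below 0.14 FPKM in shHMGA1 and 0.2 in shNC. Fibroblast markers summed to 6.75 to 11.24 FPKM in shHMGA1 and 10.92 to 11.6 in shNC, nearly all from COL1A1, with COL1A2 and DCN at or near 0.

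The LINC genes were expressed at low levels. Their median over the 6 libraries was 3.22 FPKM, against 12.1 FPKM for all 14304 genes at or above the same minimum. Of the 108, 36 lay between 1 and 2 FPKM, 36 between 2 and 5, 30 between 5 and 20, and 6 at 20 or more. None was listed at 0 in any library. Summed over the LINC genes, the libraries held 609.68, 626.88 and 617.81 FPKM in shHMGA1 and 638.99, 658.63 and 630.13 FPKM in shNC. The 2 ranges did not overlap, but they lay close together, and 10 genes made up 43.3% of the sum. The gap rests on LINC02582, which averaged 15.6 ± 3.49 FPKM in shHMGA1 and 41.4 ± 1.45 in shNC. Without this gene the sums of the 2 groups overlap, so the gap is not read as a decrease of the LINC genes together.

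The most abundant was LINC01578, now named CHASERR, which lies upstream of the chromatin remodeller gene CHD2 and, in mouse, restrains CHD2. It had 53.91, 59.84 and 68.47 FPKM in shHMGA1 and 53.56, 58.49 and 51.64 FPKM in shNC. The groups overlapped, and the difference was not called (log2 fold change 0.15, adjusted p = 0.269). CHD2, looked up after its values were seen, averaged 22.1 ± 1.41 FPKM in shHMGA1 and 23.8 ± 2.93 FPKM in shNC (log2 fold change -0.10, adjusted p = 0.461, limma).

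LINC01234, studied as a cancer-associated RNA in gastric and colon tumours, had the smallest standard error of the 10 most abundant genes. It had 27.83, 27.9 and 28.11 FPKM in shHMGA1 and 29.28, 26.93 and 29.22 FPKM in shNC, with a log2 fold change of -0.03 (SE 0.05). LINC01002 averaged 43.0 ± 6.42 FPKM in shHMGA1 and 38.2 ± 4.35 in shNC, and LINC02210, which is also the start of a read-through transcript into CRHR1, averaged 33.9 ± 4.15 in shHMGA1 and 36.9 ± 1.49 in shNC. For both, the group difference was smaller than the spread within shHMGA1. LINC00339 (16.7 ± 0.48 FPKM in shHMGA1, 14.8 ± 0.77 in shNC, adjusted p = 0.0811), LINC01315 (14.8 ± 2.25 in shHMGA1, 15.3 ± 1.17 in shNC), LINC00963 (14.5 ± 3.02 in shHMGA1, 14.6 ± 1.52 in shNC) and LINC01184 (13.9 ± 0.41 in shHMGA1, 13.0 ± 0.94 in shNC) were not called either. LINC01184 is divergent from SLC12A2, the gene of a sodium-potassium-chloride cotransporter, 594 nt away, and SLC12A2 fell by 0.40 on the log2 scale (adjusted p = 0.0151 by limma, and up to 0.0644 without shNC replicate 1 or 2) while LINC01184 had a log2 fold change of 0.09. The other 2 of the 10 most abundant, LINC02582 and LINC00511, fell and are described with the lower genes.

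**Figure D1:**
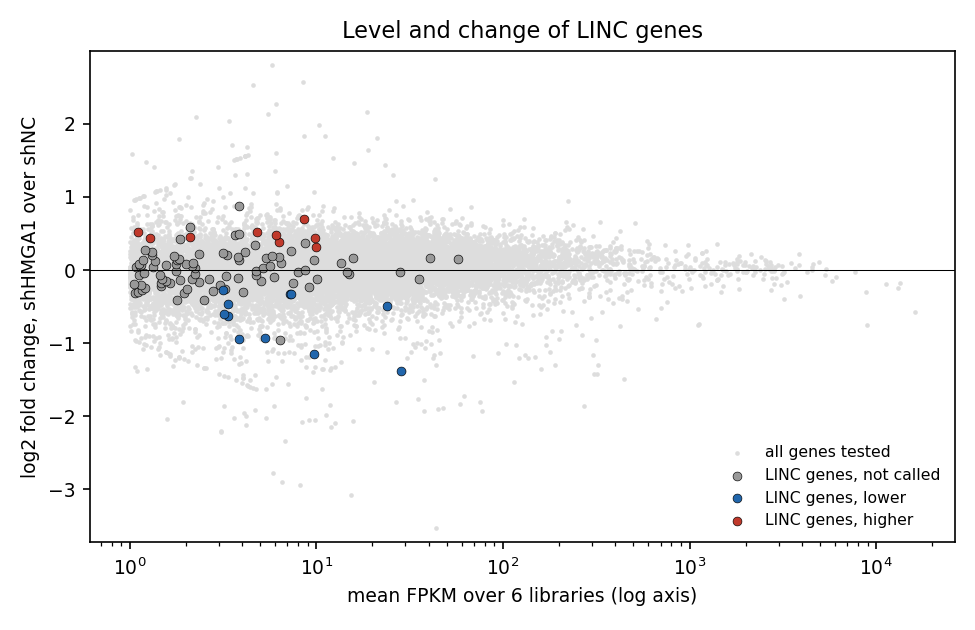
Level and difference of the LINC genes over all genes tested. The x axis is the mean FPKM over 6 libraries on a log axis and the y axis the log2 fold change, shHMGA1 over shNC, on the log2(FPKM + 1) scale. Each dot is 1 gene, grey for all 14304 tested and coloured for the 108 LINC genes by call. The LINC genes crowd the low end of the x axis, with a highest mean of 57.7 FPKM, and run from -1.38 to 0.88 on the y axis.

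Between shHMGA1 and shNC, 20 of the 108 LINC genes were called at an adjusted p under 0.05 by limma, adjusted over all 14304 genes: 9 were higher (8.33%) and 11 lower (10.2%) in shHMGA1. Over all genes tested, 28.4% were called, 16.1% higher and 12.3% lower. The share called rose with level among all genes, so the LINC genes are also set beside genes of their own level. At 1 to under 5 FPKM, 12.5% of the 72 LINC genes (5.56% higher and 6.94% lower) and 15.5% of all genes (5.22% higher and 10.3% lower) were called. At 5 to under 20 FPKM these shares were 30% of the 30 LINC genes and 29% of all genes, and at 20 FPKM and over 2 of 6 LINC genes and 37.9% of all genes. By GENCODE 29 type, 31% of 12048 protein-coding genes, 17.9% of 385 lincRNA genes (8.31% higher and 9.61% lower) and 14.7% of 505 antisense genes (9.11% higher and 5.54% lower) were called. No test was made of the LINC genes as a group against these shares.

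**Figure D2:**
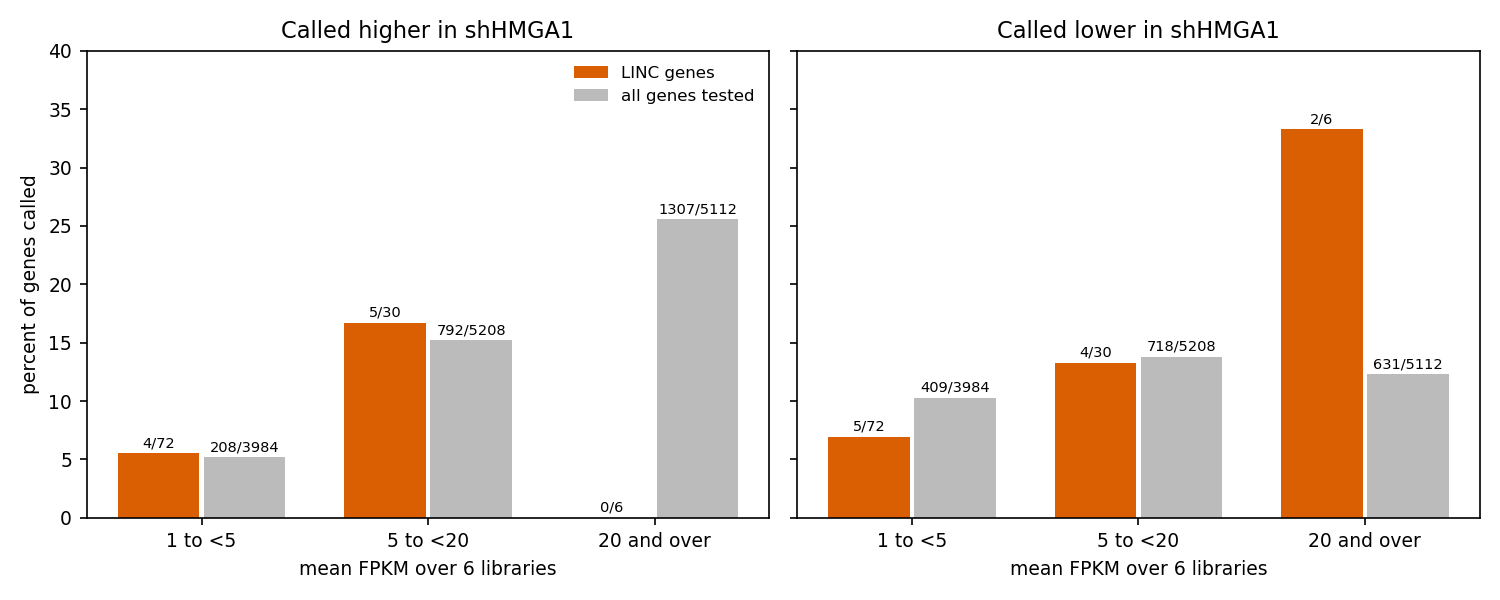
Share of genes called higher (left) or lower (right) in shHMGA1 by level. The x axis gives 3 ranges of mean FPKM and the y axis the percent of genes called at an adjusted p under 0.05. Orange bars are LINC genes and grey bars all genes tested, with called over tested counts above each bar. Among the genes called higher, the LINC share is 5.56% at 1 to under 5 FPKM and 16.7% at 5 to under 20, against 5.22% and 15.2% of all genes.

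The differences were balanced around 0. A log2 fold change above 0 was found in 54 LINC genes and below 0 in 54, with a median of -0.0022, against 0.02 over all genes tested and -0.03 over those at 1 to under 5 FPKM. Of the 108, 58 lay within 0.2 of 0 and 12 at 0.5 or beyond, 5 of them upwards and 7 downwards. In 38 LINC genes (35.2%) the 3 shHMGA1 values did not overlap the 3 shNC values, 18 with shHMGA1 above (16.7%) and 20 with it below (18.5%), against 45.9% of all genes (25.4% above and 20.5% below) and 34.1% of genes at 1 to under 5 FPKM (13.9% above and 20.2% below). The spread within a group was wide: the median coefficient of variation of the LINC genes was 17.4% in shHMGA1 and 13.5% in shNC, against 8.18% in shHMGA1 and 6.08% in shNC for all genes. For all genes at 1 to under 5 FPKM it was 14.9% in shHMGA1 and 12.5% in shNC.

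**Figure D3:**
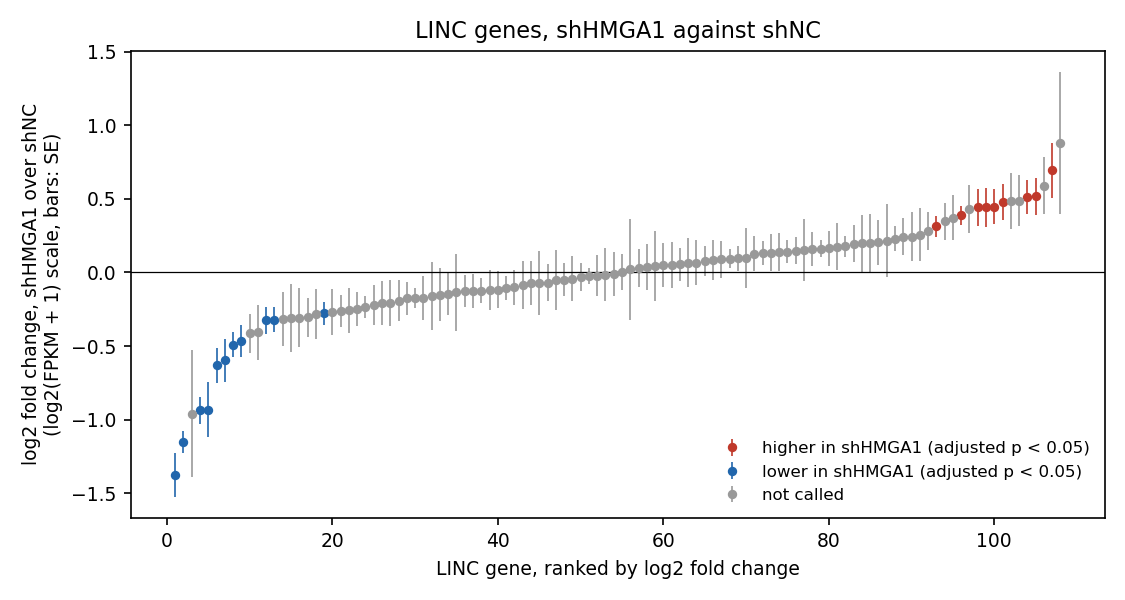
The 108 LINC genes ranked by log2 fold change, shHMGA1 over shNC. The y axis is on the log2(FPKM + 1) scale and bars are standard errors. Blue points were called lower (11), red points higher (9) and grey points not called (88). Most points lie within 0.2 of 0, the 2 lowest are LINC02582 and LINC02331, and the highest, LINC00680, has a wide bar and was not called.

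The 11 lower genes included those with the largest differences. LINC02582 (chr18:73324941-73349878, plus strand, 3 exons) lies 456795 nt from the nearest protein-coding start, that of NETO1, and no role of it is given here. It had 18.08, 17.15 and 11.63 FPKM in shHMGA1 and 42.87, 39.98 and 41.46 FPKM in shNC. Every shHMGA1 library was below every shNC library, at 37.7% of the shNC mean (log2 fold change -1.38, SE 0.15, adjusted p = 0.00162 by limma). LINC02331 (chr14:53768942-53850882, minus strand) had 5.88, 5.83 and 5.14 FPKM in shHMGA1 and 13.37, 13 and 14.75 FPKM in shNC. Both groups were tight and far apart (log2 fold change -1.15, SE 0.08, adjusted p = 0.000463, limma).

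LINC00659 (chr20:62774128-62775412, minus strand), an RNA described in colon cancer cells, had 2.21, 2.12 and 2.69 FPKM in shHMGA1 and 5.31, 5.28 and 5.55 FPKM in shNC. Its shHMGA1 mean was 43.5% of the shNC mean (log2 fold change -0.94, SE 0.09, adjusted p = 0.00133, limma). LINC00460 (chr13:106374477-106384315, plus strand) has been reported in colorectal cancer cells to bind DHX9 and IGF2BP2 and to stabilise HMGA1 mRNA. It had 2.09, 2.76 and 2.45 FPKM in shHMGA1 and 4.02, 3.94 and 5.01 FPKM in shNC, without overlap (log2 fold change -0.63, SE 0.12, adjusted p = 0.00943, limma). LINC00511 (chr17:72290091-72640472, minus strand), an RNA reported to bind the Polycomb subunit EZH2 in tumour cells, is the most abundant lower gene after LINC02582. It had 18.27, 22.48 and 18.46 FPKM in shHMGA1 and 27.43, 29.48 and 27.15 FPKM in shNC (log2 fold change -0.49, SE 0.09, adjusted p = 0.00789, limma), so 70.4% of the shNC mean remained. These 5 genes stayed called whichever library was left out.

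Each of the other 6 lower genes lost its call when some library was left out. LINC02609 had 2.89, 4.84 and 2.49 FPKM in shHMGA1 and 7.67, 6.62 and 7.35 FPKM in shNC (log2 fold change -0.93), and its adjusted p by limma was 0.0116 with all libraries and 0.0529 without shNC replicate 1. LINC00663 had 2.12, 1.97 and 2.94 FPKM in shHMGA1 and 4.68, 4.04 and 3.42 FPKM in shNC (log2 fold change -0.60, adjusted p = 0.0222 by limma), and LINC00674 had 2.99, 2.23 and 2.84 FPKM in shHMGA1 and 3.96, 4.34 and 3.92 FPKM in shNC (-0.47, adjusted p = 0.0184). Neither was called without shNC replicate 1 or shNC replicate 2, and LINC00663 was also not called without shHMGA1 replicate 2, with adjusted p up to 0.082 for LINC00663 and up to 0.0698 for LINC00674. LINC00467, which is reported to encode a small peptide of the ATP synthase in colorectal cancer cells, had 5.93, 7.12 and 6.07 FPKM in shHMGA1 and 7.76, 8.1 and 8.75 FPKM in shNC (-0.32, adjusted p = 0.0308). LINC01515 (6.36, 7.04 and 5.63 FPKM in shHMGA1, 8.26, 8.72 and 7.55 in shNC) and LINC02035 (2.82, 2.66 and 2.82 in shHMGA1, 3.56, 3.53 and 3.61 in shNC) had log2 fold changes of -0.32 and -0.28. Each of these last 3 was called in only 1 of the 6 fits that leave out a library, that without shHMGA1 replicate 2 for LINC00467 and LINC01515 and that without shHMGA1 replicate 1 for LINC02035, and otherwise reached adjusted p up to 0.103, 0.125 and 0.0991 in that order of genes.

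The 9 higher genes had log2 fold changes of 0.31 to 0.69. LINC01106 (chr2:110375138-110384442, minus strand) was the one called whichever library was left out. It had 7.1, 7.23 and 7.52 FPKM in shHMGA1 and 5.53, 5.31 and 5.15 FPKM in shNC, a narrow spread in both groups (log2 fold change 0.39, SE 0.07, adjusted p = 0.00657, limma). Of the 31-base words in its longest annotated transcript, 94.7% also occur in a transcript of another gene, on either strand, and 75.5% occur in LINC01123. The sources used here do not give how the authors placed reads that match several genes. LINC01123 averaged 10.3 ± 0.96 FPKM in shHMGA1 and 9.26 ± 0.47 in shNC (log2 fold change 0.13, adjusted p = 0.255, limma), and reads that match both genes cannot be assigned from these values.

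LINC01405 had the largest difference among the higher genes, with 8.88, 12.77 and 10.88 FPKM in shHMGA1 and 4.51, 7.42 and 7.22 FPKM in shNC (log2 fold change 0.69, SE 0.19, adjusted p = 0.0331 by limma). LINC02593 had 1.36, 1.46 and 1.61 FPKM in shHMGA1 and 0.88, 0.72 and 0.6 FPKM in shNC (0.52, adjusted p = 0.0221), and LINC02193 had 1.4, 1.48 and 2.03 in shHMGA1 and 0.98, 0.97 and 0.84 in shNC (0.44, adjusted p = 0.0451). Both were below 1 FPKM in shNC and reached the minimum through shHMGA1, so they passed the rule only through the group in which they were higher. Of the 31-base words of LINC02193, 89.1% are shared with other genes, as are 45.8% of those of LINC00342. Over all 108 LINC genes, 12 share 50% or more of these words, among them LINC01002 with 95.8%. LINC01089, known as LIMT and described as an EGF-repressed inhibitor of metastasis in breast cells, had 5.72, 6.35 and 5.36 FPKM in shHMGA1 and 3.19, 4.52 and 3.67 FPKM in shNC (0.51, adjusted p = 0.0188). Of its 31-base words 56.5% are shared with RHOF, which overlaps it on the same strand. LINC00342 (8.53, 6.25 and 6.91 FPKM in shHMGA1, 4.97, 5.44 and 4.26 in shNC) had a log2 fold change of 0.48 and LINC01547 (2.27, 2.69 and 2.77 in shHMGA1, 1.33, 1.72 and 1.83 in shNC) one of 0.45. LINC01963 (9.27, 13.25 and 12.13 in shHMGA1, 8.67, 8.39 and 7.44 in shNC) had 0.44 and LINC01128 (11.25, 10.88 and 11.31 in shHMGA1, 8.56, 9.65 and 8.17 in shNC) had 0.31. The groups did not overlap in any of the 9.

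Except for LINC01106, each higher gene lost its call in some fit that left out a library. LINC01405, LINC01963 and LINC02193 were called only without shHMGA1 replicate 1 and reached adjusted p of 0.098, 0.123 and 0.114 (limma) in that order in the other fits. LINC01547 was not called without shNC replicate 1 or 2 or shHMGA1 replicate 2 or 3 (adjusted p up to 0.0973), and LINC00342 and LINC01128 not without shNC replicate 1 or 3 or shHMGA1 replicate 3 (up to 0.0877 and 0.0782). LINC01089 was not called without shNC replicate 1 or 3 or shHMGA1 replicate 2 (up to 0.065), and LINC02593 not without shNC replicate 2 or shHMGA1 replicate 3 (up to 0.0674). Leaving out shNC replicate 1 or shHMGA1 replicate 3 left 2 higher genes each, leaving out shNC replicate 3 left 3, leaving out shNC replicate 2 left 4, and leaving out shHMGA1 replicate 1 gave 14. Of the lower genes, 5 were left without shNC replicate 1 and 6 without shNC replicate 2. No called gene changed its sign in these fits.

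**Figure D4:**
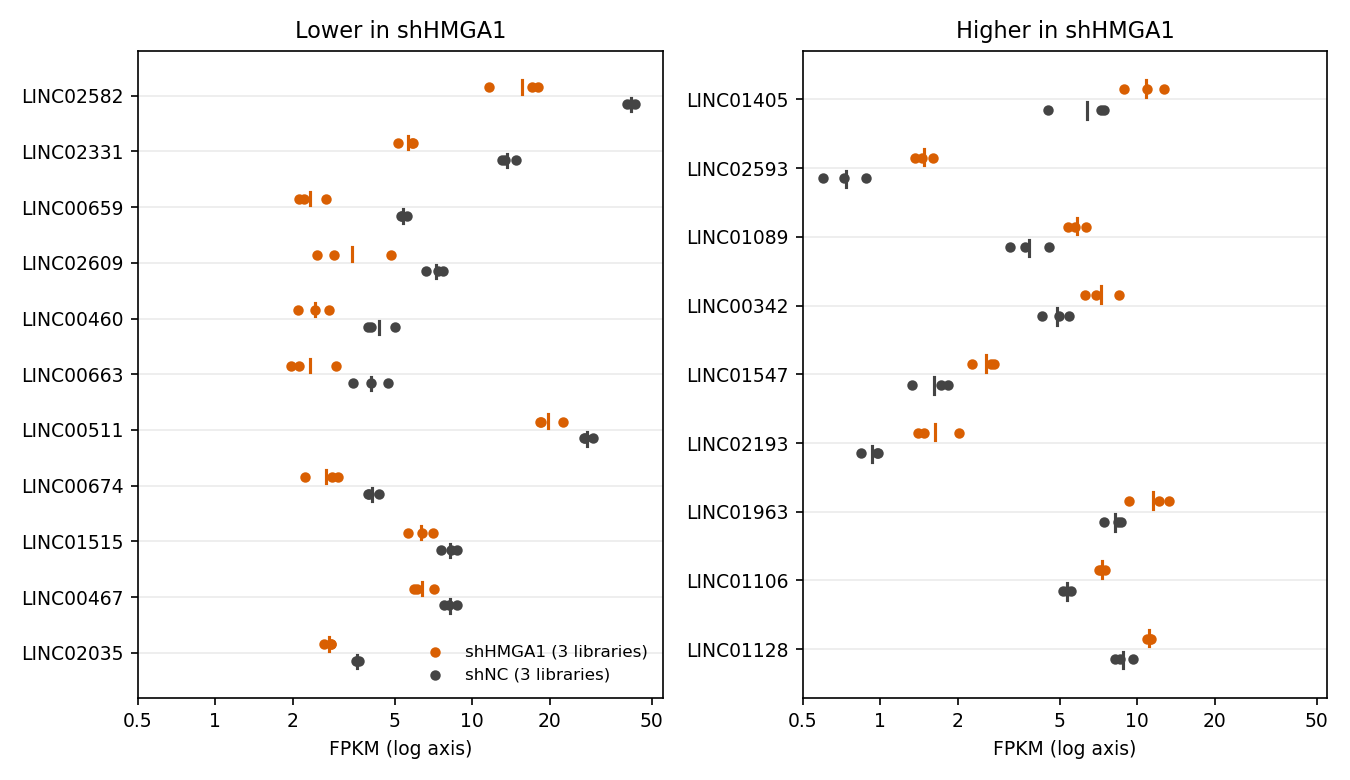
FPKM of the 20 called LINC genes in each library, lower genes on the left and higher genes on the right. Each dot is 1 library on a log axis, with 3 shHMGA1 libraries in orange above 3 shNC libraries in dark grey, and vertical marks are group means. The 2 groups are apart for all 20 genes, widest for LINC02582 and LINC02331.

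The promoters of the 4 genes that were called whichever library was left out and that have an entry in RefSeq are shown because HMGA1 binds short AT stretches. LINC02582 and LINC02331 are named only. Each sequence is from RefSeq (GRCh38.p14), 250 bases before to 50 bases after the RefSeq start, read 5' to 3' on the gene's strand, with runs of at least 6 bases that are each A or T in capitals. The windows are chr20:62776807-62777106 (minus strand) for LINC00659, chr13:106376314-106376613 (plus strand) for LINC00460, chr17:72640423-72640722 (minus strand) for LINC00511 and chr2:110384487-110384786 (minus strand) for LINC01106.
LINC00659: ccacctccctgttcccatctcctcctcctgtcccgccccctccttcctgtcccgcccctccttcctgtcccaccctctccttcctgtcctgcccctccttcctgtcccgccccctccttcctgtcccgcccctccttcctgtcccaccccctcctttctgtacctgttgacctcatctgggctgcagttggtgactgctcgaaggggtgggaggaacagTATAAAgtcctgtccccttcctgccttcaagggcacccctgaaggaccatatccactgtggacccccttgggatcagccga
LINC00460: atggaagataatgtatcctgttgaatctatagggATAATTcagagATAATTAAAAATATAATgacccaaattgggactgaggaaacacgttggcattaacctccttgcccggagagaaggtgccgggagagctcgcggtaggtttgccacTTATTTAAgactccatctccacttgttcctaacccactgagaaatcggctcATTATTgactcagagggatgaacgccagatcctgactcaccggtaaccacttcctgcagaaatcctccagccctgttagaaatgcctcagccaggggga
LINC00511: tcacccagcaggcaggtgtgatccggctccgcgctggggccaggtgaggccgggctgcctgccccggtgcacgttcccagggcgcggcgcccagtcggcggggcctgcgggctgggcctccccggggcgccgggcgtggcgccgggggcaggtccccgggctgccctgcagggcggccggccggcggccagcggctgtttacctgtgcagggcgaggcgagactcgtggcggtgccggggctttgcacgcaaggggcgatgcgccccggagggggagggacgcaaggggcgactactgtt
LINC01106: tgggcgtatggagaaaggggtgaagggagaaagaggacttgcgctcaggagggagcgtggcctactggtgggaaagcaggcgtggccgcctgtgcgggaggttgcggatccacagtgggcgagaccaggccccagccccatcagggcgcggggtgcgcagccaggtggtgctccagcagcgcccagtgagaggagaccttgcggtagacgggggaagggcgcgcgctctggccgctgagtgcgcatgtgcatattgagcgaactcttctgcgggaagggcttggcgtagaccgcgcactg
The LINC00460 window is 53.3% A or T and holds 4 such runs, the longest of 17 bases. The LINC00659 window is 37% A or T and holds 1 run, of 6 bases. The windows of LINC00511 (22% A or T, 35 CpG dinucleotides) and of LINC01106 (33.3%, 24 CpG) hold none. The RefSeq start lies 1444 nt from the GENCODE 29 start for LINC00659, 2087 nt for LINC00460, 94 nt for LINC01106 and 0 nt for LINC00511, so the windows of LINC00659 and LINC00460 do not lie at the GENCODE start.

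Over all 75 LINC genes with a RefSeq promoter, 44 windows (58.7%) held a run of at least 6 A or T bases, against 61.2% of all 35116 windows. Such a run is made of A and T on both strands, and overlapping runs were counted as 1. Among the 7 lower genes with a window 6 held a run, among the 4 higher genes 1, and among the 64 not called 37. The median A or T share was 37% for the lower genes, 33.3% for the higher genes and 38.2% for those not called, against 41.3% of all windows. The median CpG number was 8 for the lower genes, 24 for the higher genes and 18 for those not called. These groups are small, the features were looked at with the calls known, and a match is a description of the letters and not of binding.

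The LINC genes lay in several kinds of place relative to protein-coding genes. Each was put in 1 class. In 12, the start lay within 1000 nt of a protein-coding start on the opposite strand, here called head to head. Such pairs may point apart or overlap, as LINC00649 and ATP5PO do. Of the others, 13 overlapped a protein-coding gene, 53 more had their nearest protein-coding start within 100 kb and 30 had none within 100 kb. Of the 30 remote genes 2 were higher and 6 lower in shHMGA1, of the 53 within 100 kb 5 were higher and 5 lower, and of the 12 head-to-head genes 2 were higher. Over all LINC genes 8.33% were higher and 10.2% lower, and over all genes tested 16.1% and 12.3%. The classes are small and were not tested against these shares. Counting the 6 head-to-head genes that also overlap a protein-coding gene, 19 overlapped one, and of these LINC01089 was called higher. An exon of 38 LINC genes overlaps another gene, 26 of them on the opposite strand. Whether the counting used strand is not stated in the sources, and without strand the reads of such a pair cannot be told apart. Chromosome 1 held 11 of the LINC genes, and chromosomes 2 and 12 held 10 each.

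For 4 called higher genes the nearest protein-coding gene within 100 kb was tested, and it was higher in each case, against 16.1% of all genes tested. LINC02593, 1 of the 4, passed the rule only through shHMGA1. SAMD11 counts for LINC02593 (2.91 kb away) and LINC01128 (98.8 kb away), and averaged 7.3 ± 0.62 FPKM in shHMGA1 and 4.05 ± 0.87 in shNC (log2 fold change 0.73, adjusted p = 0.00905 by limma). SETD1B, a histone methyltransferase gene 274 nt head to head with LINC01089, averaged 4.19 ± 0.33 FPKM in shHMGA1 and 3.03 ± 0.08 in shNC (0.36, adjusted p = 0.0188). FAM207A, 97 nt from LINC01547, averaged 36.1 ± 3.33 FPKM in shHMGA1 and 29.9 ± 1.51 in shNC (0.26, adjusted p = 0.0445). SETD1B kept its call in 2 of the 6 fits that left out a library, with adjusted p up to 0.0634 without shNC replicate 1, 2 or 3 or shHMGA1 replicate 3. FAM207A kept its call only without shHMGA1 replicate 1, with adjusted p up to 0.143 without any other library. SAMD11 was called in all 6.

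Over all genes tested 12.3% were called lower, and the neighbours of higher and lower LINC genes were not compared by a test. No tested neighbour within 100 kb of a lower LINC gene was called lower. Of 5 such neighbours, 4 were not called and KPNA2, an importin gene 66.4 kb from LINC00674, was higher, at 408 ± 27.2 FPKM in shHMGA1 and 351 ± 2.83 in shNC (log2 fold change 0.22, adjusted p = 0.0278 by limma, up to 0.0972 in the other fits and called only without shHMGA1 replicate 2). Beyond 100 kb, the nearest gene was tested for 5 called LINC genes, and these were named after their values were seen. BMP4, a bone morphogenetic protein gene 108 kb from the start of LINC02331, had 85.26, 96.45 and 88.8 FPKM in shHMGA1 and 205.23, 206.47 and 210.13 FPKM in shNC (-1.19, adjusted p = 0.000157), against -1.15 for LINC02331. EFNB2, the nearest to LINC00460, had -0.39 (adjusted p = 0.0384, and up to 0.106 without shNC replicate 1, 2 or 3 or shHMGA1 replicate 3). XRCC5, the nearest to the higher gene LINC01963, had 0.31 (adjusted p = 0.00524). SLC39A11, the nearest to LINC00511, had -0.07, and ANKRD36C, the nearest to LINC00342, had 0.07, and neither was called. Over all 54 LINC genes with a tested neighbour within 100 kb, 22 pairs had the same sign, with a Pearson correlation of 0.17 across pairs that share the same 6 libraries. Of the 12 head-to-head pairs, 3 had the same sign.

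Some LINC genes that were not called had libraries far from the others of their group. LINC00680, which has the highest log2 fold change of all 108 (0.88, SE 0.48), had 12.19 FPKM in shHMGA1 replicate 1 but 2.48 and 2.58 in the other shHMGA1 libraries, and 2.03, 2.25 and 1.68 FPKM in shNC. It was not called (adjusted p = 0.212, limma). The 3 genes whose profile over the 6 libraries was most like it were DCLRE1C (Pearson r = 0.993), GUSBP3 (0.989) and PRPF8 (0.989). DCLRE1C had 11.51, 4.77 and 4.79 FPKM in shHMGA1 and 4.33, 4.65 and 3.48 in shNC, so the same library was high. LINC02356 had 1.51, 5.61 and 5.15 FPKM in shHMGA1 and 6.92, 5.5 and 13.58 FPKM in shNC (-0.96, adjusted p = 0.137), with shHMGA1 replicate 1 low and shNC replicate 3 high. It was named after its values were seen, as was LINC00173, with 4.32, 3.27 and 8.24 FPKM in shHMGA1 and 7.06, 2.93 and 5.34 in shNC.

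The profile of LINC02582, the gene with the lowest log2 fold change, was matched most closely by FSTL1 (Pearson r = 0.9995 over 6 libraries), TBC1D2 (0.998) and RAB37 (0.997). FSTL1, the gene of a secreted glycoprotein, had 10.8, 10.7 and 8.76 FPKM in shHMGA1 and 16.45, 15.91 and 15.92 FPKM in shNC. As in LINC02582, shHMGA1 replicate 3 was the lowest library. With 6 libraries in 2 groups, any gene that separates the groups has a high correlation with any other that does.

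The authors' deposited table gives their own log2 fold change for every LINC gene, from group levels on a normalized count scale. The median LINC level there was 86.3 in shNC, against 804 over all genes tested, and 38 LINC genes lay under 50. Its direction was that of the FPKM values in 98 of 108 LINC genes and in all 20 called ones. An adjusted p under 0.05 in the authors' deposited table was found for 17 LINC genes, 9 higher (8.41% of 107) and 8 lower (7.48%), against 20.3% higher and 18.2% lower of all genes. Of the 20 called here, 12 pass in the authors' deposited table, and 5 pass only there. LINC01405, the higher gene with the largest difference, does not pass (adjusted p of 0.217 in the authors' deposited table). Neither do LINC00663, LINC00674, LINC01515, LINC00467, LINC02193, LINC00342 and LINC01128. LINC02582 has -1.44 in the authors' deposited table, LINC02331 -1.30, LINC00659 -1.27, LINC00460 -0.95, LINC00511 -0.57 and LINC01106 0.52, each with an adjusted p under 0.05 there. LINC01128, at 0.31 from FPKM, has 0.07 in the authors' deposited table, with an adjusted p of 0.656 there. LINC02593, at 0.52 from FPKM, has 1.20 in the authors' deposited table.

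The 2 sources gave opposite directions for 10 LINC genes, and the 6 that differed most are named here. LINC01006 had a log2 fold change of 0.28 from FPKM and -0.35 in the authors' deposited table. LINC01833 had -0.07 from FPKM and 0.37 in the authors' deposited table, LINC00910 -0.19 and 0.02, LINC00470 0.05 and -0.16, LINC01521 -0.01 and 0.15, and LINC01278 -0.15 and 0.02. None of these 6 was called from FPKM or has an adjusted p under 0.05 in the authors' deposited table.

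**Figure D5:**
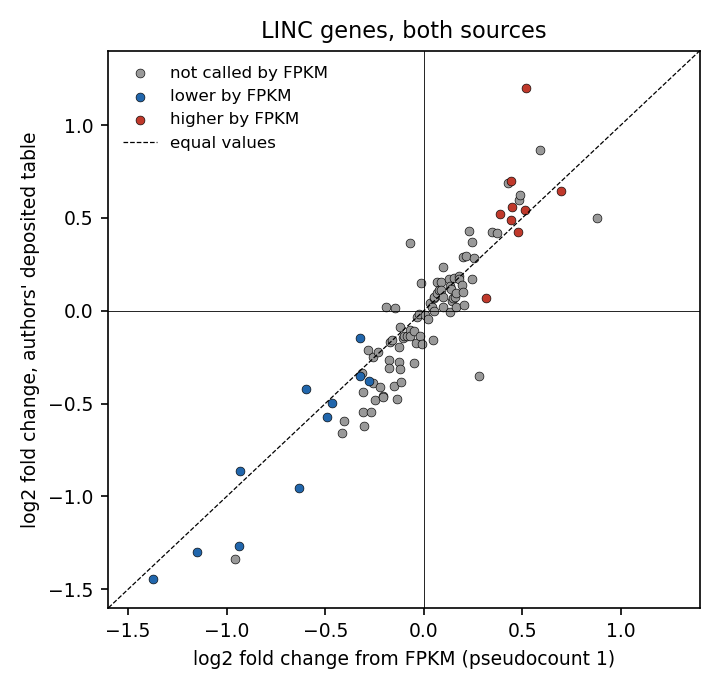
Log2 fold change of the 108 LINC genes, shHMGA1 over shNC, from FPKM with a pseudocount of 1 (x axis) and in the authors' deposited table (y axis). Blue points were called lower from FPKM, red points higher and grey points not called, and the dashed line marks equal values. All 20 called genes lie in the quadrant of their own direction, and 10 grey points lie in the other quadrants.

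Long noncoding RNAs with names of their own were called in both directions as well. The list holds CHASERR, which is LINC01578 and so also 1 of the 108. Of 53 listed, 42 were tested, 10 were higher and 7 lower in shHMGA1 (median log2 fold change 0.02), against 16.1% higher and 12.3% lower of all genes. Of the 42, 23 lay at 20 FPKM and over, where 25.6% of all genes were called higher and 12.3% lower. Another 12 lay under 5 FPKM, where these shares were 5.22% and 10.3%. The list was not tested against these shares. LUCAT1, a stress-induced RNA, averaged 0.853 ± 0.16 FPKM in shHMGA1 and 2.67 ± 0.24 in shNC (-0.99, adjusted p = 0.00221 by limma). Its shHMGA1 mean was below 1 FPKM, so LUCAT1 passed the minimum for testing only through shNC, the group in which it was higher. MIR22HG, the host gene of miR-22, averaged 2.13 ± 0.85 FPKM in shHMGA1 and 4.87 ± 0.56 in shNC (-0.94, adjusted p = 0.0163, up to 0.0666 without shNC replicate 1 or 2). CASC19 averaged 5.87 ± 0.46 FPKM in shHMGA1 and 2.83 ± 0.32 in shNC (0.85, adjusted p = 0.00182), and CYTOR, a cytoplasmic RNA raised in many tumours, averaged 26.3 ± 3.58 in shHMGA1 and 43.2 ± 1.95 in shNC (-0.70, adjusted p = 0.00321). The counts were 4 higher and 4 lower without shNC replicate 1, 5 and 4 without shNC replicate 2, 5 and 7 without shNC replicate 3, and 4 and 5 without shHMGA1 replicate 3.

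In 4 lists of genes whose products end or degrade RNA, limma called no gene lower with all libraries. These genes are better expressed than the LINC genes, and among all genes at 20 FPKM and over 25.6% were called higher and 12.3% lower, against 15.2% higher and 13.8% lower at 5 to under 20 FPKM. Of 25 genes of the nuclear exosome and its adaptors, 14 were higher and 0 lower (median log2 fold change 0.26), against 16.1% higher and 12.3% lower of all genes. At an unadjusted p under 0.05, 15 were higher and 0 lower. Of the 25, 19 lay at 20 FPKM and over. The exosome subunit gene EXOSC2 had 51.99, 51.18 and 54.05 FPKM in shHMGA1 and 37.38, 38.45 and 38.04 in shNC (0.45, adjusted p = 0.00137 by limma). PABPN1, the nuclear poly-A binding protein gene, averaged 97.5 ± 2.85 in shHMGA1 and 71.5 ± 3.36 in shNC (0.44). The subunit genes EXOSC5 and EXOSC4 also had log2 fold changes of 0.44, that of EXOSC4 called in only 2 of 6 fits that left out a library (adjusted p up to 0.0944 without shNC replicate 1 or 2 or shHMGA1 replicate 2 or 3). Without shNC replicate 1 or without shHMGA1 replicate 3, 8 of the 25 were higher, and without shNC replicate 2 it was 9.

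Of 19 genes of cleavage, polyadenylation and termination, 13 of them at 20 FPKM and over, 10 were higher and 0 lower by limma (median 0.21), against 16.1% higher and 12.3% lower of all genes, with 12 and 0 at an unadjusted p under 0.05. Among them were CPSF2 (0.36), CLP1 (0.35) and CPSF7 (0.29). CPSF6 (0.25) was called only without shNC replicate 1, with adjusted p up to 0.131 (limma) without any other library. The count of higher genes dropped to 4 when shHMGA1 replicate 3 or shNC replicate 1 or 2 was left out, and to 6 when shHMGA1 replicate 2 or shNC replicate 3 was. Of 15 genes of the Integrator complex, which cleaves nascent noncoding transcripts, 6 of them at 20 FPKM and over, 3 were higher and 0 lower (median 0.12), a count near the 16.1% of all genes called higher. They were INTS3 (0.33), INTS9 and INTS1, with 5 and 0 at an unadjusted p under 0.05. INTS3 alone was called in each fit that left out a library, INTS1 (up to 0.0841) only without shHMGA1 replicate 1 and INTS9 (up to 0.137) in none. Without shHMGA1 replicate 1 there were 3 higher Integrator genes and without shNC replicate 3 there were 2, and leaving out any other library left 1. Of 23 genes of cytoplasmic RNA decay, 12 of them at 20 FPKM and over, 5 were higher and 0 lower (median 0.07; 7 and 2 at an unadjusted p under 0.05), a count near the shares of all genes at these levels, with SMG5 at 0.54, UPF1 at 0.51, UPF2 at 0.41 and EDC4 at 0.33. In this last list 1 gene was lower with quantile scaling, 1 with the replicate number as a block, 1 without shNC replicate 3 and 2 without shHMGA1 replicate 1.

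The edge of the rule lay among genes of nearly equal level. Just inside were LINC00910 with a mean of 1.06 FPKM, LINC01730 with 1.07 and LINC00239 with 1.09, and just outside LINC02562 with 0.982, LINC00672 with 0.97 and LINC01271 with 0.967. None of the 3 inside was called. LINC00910 had 0.68, 1.19 and 0.92 FPKM in shHMGA1 and 1.18, 1.22 and 1.17 FPKM in shNC. LINC01730 had 0.28, 1.38 and 0.99 in shHMGA1 and 1.17, 1.27 and 1.34 in shNC, and LINC00239 had 1.01, 1.01 and 1.3 in shHMGA1 and 0.7, 1.32 and 1.17 in shNC. In all 3 the groups overlapped.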

How the data were processed

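Poly-A RNA of 3 shHMGA1 and 3 shNC libraries was sequenced on an MGI instrument, per the labels' protocols. FPKM per library was computed by the authors, per the file headers. The authors' group levels in the same deposited table are a signal on the scale of normalized counts, and next to them stand the authors' log2 fold change, their p-value and its adjusted form. The genome build named is hg38, per the submitters' processing notes. No aligner, counter, strand setting or statistical tool is named in the sources used here. Depth per library is unknown. Steps between low values gave no usable estimate of relative depth, since only 25 to 37 of 418 to 456 genes lay at 1 step size in 5 of the libraries.

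Tests used limma 3.58.1 (R 4.3.3) on log2(FPKM + 1): group means, eBayes with trend, two-sided, no covariates, 14304 genes whose mean FPKM reached 1, Benjamini-Hochberg adjustment over all of them. Every adjusted p without another source is from this test. The pseudocount shrinks the fold changes of weakly expressed genes. Differences are shHMGA1 minus shNC, and errors are SD over 3 libraries. In simulated data for this comparison (14177 genes, 200 changed), the test found 98% of genes changed by 1 on the log2 scale and 69% of genes changed by 0.5, with 13 unchanged genes called. The changed genes were drawn only from those at a mean of 5 FPKM or more. These shares therefore do not cover the 72 LINC genes below 5 FPKM, and far more genes were called in the real data. The exact permutation test went through every split of the 6 libraries into 3 and 3 (Python 3.11.15).

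Positions, gene types and 31-base words came from GENCODE 29, which holds all 108 IDs. The words were those of the longest transcript of each LINC gene, matched on either strand to all transcripts of other genes. Of the 108, 11 have a newer symbol and 75 a RefSeq promoter. Groups came from the sample titles. The LINC genes, lists and tests were chosen with earlier results of these data known. Named are the 10 most abundant LINC genes, all called ones (at most 12 per direction, groups not overlapping), 3 on each side of the minimum, up to 6 with opposite direction in the authors' table, up to 4 called genes per list, neighbours within 100 kb of called genes, the 3 profiles most like the extreme genes, and HMGA1. Alternatives were other pseudocounts (0.1 and 5), testing without a filter or from 5 FPKM, scaling by quantiles, median of ratios or TPM, removal of mitochondrially encoded genes, a replicate block, eBayes without trend or robust, and leaving out each library.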

Additional observations from a re-analysis of the deposited data

How the results depend on the processing

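Of the 20 called LINC genes, 6 kept their call without any 1 library and under every alternative that tested them. These were LINC02582, LINC02331, LINC00659, LINC00460, LINC00511 and LINC01106. LINC00659 (mean 3.86 FPKM) and LINC00460 (mean 3.38 FPKM) were not in the fit from 5 FPKM. Against 9 higher and 11 lower LINC genes, no filter on low values gave 3 and 6, with more genes tested, and a mean of at least 5 FPKM gave 5 and 7 of the 36 LINC genes left. Leaving out 1 library gave 2 to 14 higher and 5 to 10 lower LINC genes. Over all genes, 2307 were higher and 1758 lower. No filter gave 1478 higher, and leaving out 1 library gave 1094 to 2621 higher and 947 to 1962 lower. The split moved to 1977 higher and 1998 lower with median-of-ratios scaling, 2074 and 1877 with quantile scaling and 1962 and 1901 without mitochondrially encoded genes. For the LINC genes those 3 settings gave 9 higher and 13 lower, 12 and 10, and 8 and 12.

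The median log2 fold change of the LINC genes, -0.0022, was 0.033 with quantile scaling and ran from -0.025 to 0.058 with 1 library left out, so its sign is not settled. The cause was not tested. The replicate number as a block gave 6 higher and 9 lower LINC genes and 1913 higher and 1495 lower genes over all. Same-numbered libraries correlated at 0.0202, -0.0364 and 0.041 in their deviations from the group means, so the numbers do not show a pairing, and with the block LINC00467, LINC02035, LINC01963, LINC02193 and LINC02593 were not called.

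Genes that were not called changed sign in some settings. LINC01521, at -0.01, had 0.036 with quantile scaling. With 1 library left out, log2 fold changes ran from -0.17 to 0.10 for LINC00963, -0.12 to 0.074 for LINC01315, -0.19 to 0.10 for LINC01521, -0.22 to 0.23 for LINC00470, -0.33 to 0.10 for LINC01833 and -0.094 to 0.13 for LINC00239. Below 5 FPKM, where 72 of the LINC genes lie, their median coefficient of variation was 19.3% in shHMGA1 and 15.9% in shNC. The part of depth in this was not tested.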

Other observations

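Among the 664 LINC rows below the mean of 1 FPKM, 7 reached a mean of 1 FPKM in 1 group, 1 of them in shHMGA1 and 6 in shNC. The same count over all genes is not given here. These rows were picked for a high level in 1 group, which favours a gap between the groups, so a gap in them is not read as a result. They were not tested, since a filter on the mean had left them out, and they were named after their values were seen. LINC00698 had 0.03, 0.07 and 0 FPKM in shHMGA1 and 1.06, 0.77 and 1.2 FPKM in shNC. It was close to 0 in every shHMGA1 library and near 1 FPKM in every shNC library. LINC01814 had 0.54, 0.48 and 0.5 FPKM in shHMGA1 and 1.24, 0.97 and 0.92 in shNC, and LINC00672 had 0.87, 0.73 and 0.79 in shHMGA1 and 1.11, 1.27 and 1.05 in shNC. The authors' group levels of LINC01814 lay closer together, at 92.1 in shHMGA1 and 105 in shNC. Their levels were 1.02 in shHMGA1 and 40.7 in shNC for LINC00698, and 78.6 in shHMGA1 and 114 in shNC for LINC00672. In the other rows that reached 1 FPKM in shNC, LINC02256, LINC01271 and LINC01338, the groups overlapped. The single row that reached 1 FPKM in shHMGA1, LINC02562, did so through 1 library, with 0.86, 0.49 and 2.51 FPKM in shHMGA1 and 0.69, 0.95 and 0.39 in shNC. A further view of the low rows is that 32 of the 664 reached 1 FPKM in at least 1 library and none was listed at 0 in all 6.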
